A study of Mus musculus with 11 samples.

Results

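Gene expression was compared between im-scWAT adipocytes that carried a JMJD1A knockdown together with a human JMJD1A transgene and im-scWAT adipocytes that carried neither, all taken at day 8 of beige differentiation with rosiglitazone (ROS). Of the 11 RNA-seq samples of the study, 3 belong to this comparison, chosen by their labels alone: 2 labelled sh-mJmjd1a with WT-hJMJD1A (replicates A and B, called WT A and WT B here) and 1 untransduced sample. All 3 samples come from im-scWAT, a line of preadipocytes taken from the inguinal fat of the mouse and made immortal by retroviral SV40 large T antigen. Preadipocytes for WT A and WT B had in addition been infected with a retrovirus that expresses the shRNA against mouse Jmjd1a and with a second one in which a viral LTR drives V5-tagged human JMJD1A, and had been selected for both, so that the knockdown, the transgene, the viruses and the selection all separate the groups. No sample with an empty or control virus was analysed here. Differentiation in all 3 used indomethacin, dexamethasone, isobutylmethylxanthine, insulin, T3 and 0.5 μM ROS. The labels take ROS out of the medium on day 7 unless stated otherwise, whereas the study's methods for these cells keep it to day 8. The labels do not say whether WT A and WT B were separate infections or separate dishes, and transduction cannot be told apart from any difference in the time or batch of culture.

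JMJD1A, also called KDM3A and encoded by Kdm3a in the mouse, removes methyl groups from lysine 9 of histone H3, a mark of silent chromatin. In adipocytes it is known to act with PPARγ on thermogenic genes, and the study used knockdown cells given back WT-hJMJD1A as the reference for its S265 mutants. The comparison with untransduced adipocytes shows how far those reference cells were from the cells they were made from. Beige adipocytes are fat cells that appear within white fat and, like brown adipocytes, burn lipid in mitochondria uncoupled by UCP1. Differentiation of preadipocytes in culture starts with a round of hormone-driven division, after which matrix and fibroblast genes are shut down and lipid genes are switched on.

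FPKM of the sense transcript that the files mark as representative stood for each of 29955 gene symbols, and the 12919 genes that reached an FPKM of 1 in one or more of the 3 samples were compared on log2(FPKM + 0.1). On this scale the change of a weakly expressed gene comes out too small. The FPKM values rested on 5.08 Gb of mapped bases in the untransduced sample, 3.70 Gb in WT A and 3.67 Gb in WT B, where 100 bases on a transcript of 2 kb correspond to an FPKM of 0.00984, 0.0135 and 0.0136. The general adipocyte markers were high in all 3 samples. Adipoq, the gene of adiponectin, had an FPKM of 1291 in the untransduced sample, 978 in WT A and 738 in WT B, against 0.121 and 0.0519 in the 2 preadipocyte samples of day 0. The beige label held less evenly, because Ucp1 stood at 9.90 in the untransduced sample and 12.1 in WT A but at 0.724 in WT B.

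WT A and WT B stood far apart from each other. The FPKM of 2416 genes (18.7%) differed at least 2-fold between them, where 115 genes (0.89%) did so between the day 0 samples. WT B lay closer to the mutant samples than to WT A, with 420 genes (3.25%) 2-fold apart from S265D and 737 (5.70%) from S265A. WT A was 2-fold apart from the untransduced sample in 2097 genes (16.2%) and WT B in 2820 (21.8%). Gene values that follow are therefore given for WT A and WT B separately, a list median with no sample named is that of the mean of both, and a gene was counted as higher or lower, and termed called, only when both were at least 2-fold to the same side of the untransduced sample.

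The targeted gene was not lower in either WT sample by more than the 2-fold limit. Kdm3a (chromosome 6, 71538966 to 71582899 on mm9, minus strand) had an FPKM of 21.1 in the untransduced sample, 20.4 in WT A and 17.9 in WT B. The difference was -0.14 on the log2 scale (limma SE 0.46, adjusted p = 0.991). Kdm3a was at 13.0 in S265A, 23.0 in S265D and 28.5 in S265D-H1120Y, and between 15.1 and 23.2 in the other untransduced samples, so that the transduced and untransduced ranges overlapped. A shorter transcript of the same gene had 10.2 in the untransduced sample, 6.58 in WT A and 6.96 in WT B. Reads from the human transgene can align to the mouse gene, and the files do not separate them, so these values check neither the knockdown nor the transgene.

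Both WT samples were above the untransduced sample in 4507 genes (34.9% of those tested) and below it in 4125 genes (31.9%), and the untransduced value lay between them in 4286 genes (33.2%). At least 2-fold on the same side in both were 676 genes that were higher (5.23%) and 222 that were lower (1.72%), 898 in all (6.95%). WT A and WT B were at least 2-fold to opposite sides in few genes, with WT A higher in 69 and WT B higher in 81. The distance of the untransduced sample to the nearer WT sample was larger than the gap between the WT samples for 620 of the 676 genes and 197 of the 222. In limma 0 of 12919 genes (0%) passed an adjusted p of 0.05, with a smallest adjusted p of 0.975, and 560 genes (4.33%) had an unadjusted p under 0.05, of which 446 were higher. The fit has 1 residual degree of freedom, which is the gap within the WT pair. The smallest two-sided p of an exact permutation test of 2 samples against 1 is 0.333. The calls below are thus counts of genes by fold, with no test passed, and "higher" and "lower" describe these 3 samples. Just past the limit was Ncam1 (0.995 in the untransduced sample, 2.09 in WT A and 5.62 in WT B), beside a clone transcript, and the nearest genes short of it were Leng8 (9.44, 21.1 and 19.0) and Ube2a (78.4, 39.1 and 26.4).

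**Figure D1:**
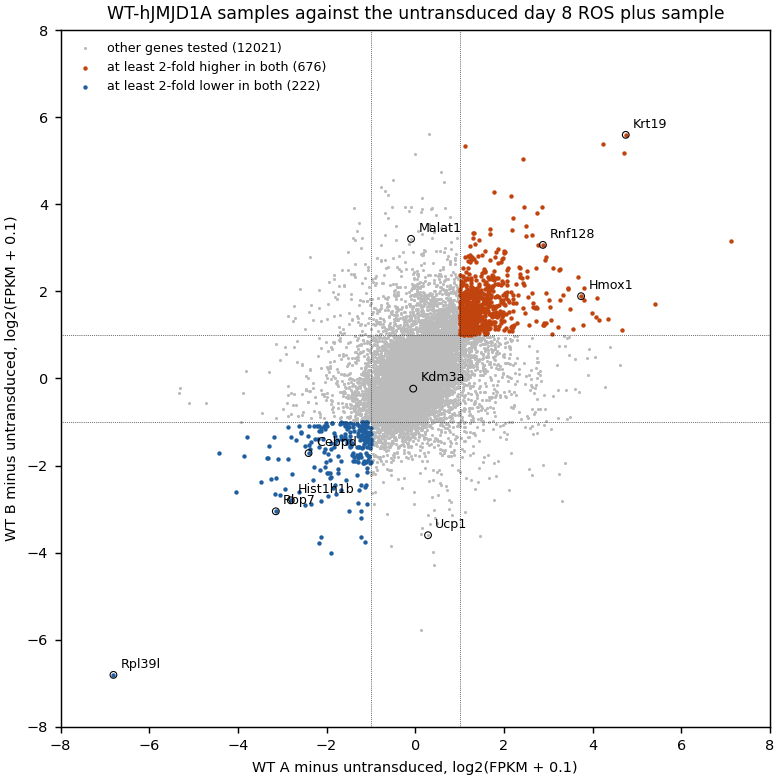
Each point is 1 of the 12919 genes, with the difference of WT A (horizontal axis) and WT B (vertical axis) from the untransduced day 8 ROS plus sample on log2(FPKM + 0.1), dotted lines at 2-fold, and circles around 10 genes named in the text. The 676 genes higher in both lie in the upper right and the 222 lower in both in the lower left, while Ucp1 and Malat1 lie near 0 in WT A and far from it in WT B.

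Passing the minimum FPKM depended on the direction for some genes. Of the 676 genes that were higher, 252 reached an FPKM of 1 only in a WT sample, and of the 222 that were lower, 55 reached it only in the untransduced sample. With the minimum set instead in the untransduced samples of day 4 and of day 8 without ROS, which take no part in the comparison, 12660 genes remained, of which 563 were higher (4.45%) and 236 lower (1.86%).

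Krt19, a keratin of epithelial cells and of some progenitors, was the named gene with the largest value in both WT samples. Its FPKM was 0.314 in the untransduced sample, 11.01 in WT A and 19.9 in WT B, a log2 difference of 5.17 (limma SE 0.58). Both WT samples were far above all 4 differentiated untransduced samples, which went from 0.0931 to 0.819, and below the preadipocytes of day 0, which had 57.9 and 62.4. Krt19 lies at 100002126 to 100007233 of chromosome 11 on mm9.

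Several others of the 12 leading genes showed the same order, with the WT samples between the untransduced adipocytes and the preadipocytes. Prl2c3 and Prl2c2 encode proliferin, a prolactin-like growth factor, and had an FPKM of 0.0457 and 0.0994 in the untransduced sample, 3.71 and 3.68 in WT A, 5.16 and 8.24 in WT B, with levels between 22.3 and 30.4 at day 0. They are near-identical copies, so how reads were divided between them is uncertain. Fosl1, which encodes the AP-1 subunit FRA1, was at 1.96 in the untransduced sample, 15.5 in WT A and 13.4 in WT B, with 48.0 and 52.0 at day 0. Elovl6, a fatty acid elongase, was at 0.302, 3.74 and 2.18 in the untransduced sample, WT A and WT B, with 22.3 and 16.2 at day 0, but the other differentiated untransduced samples had 1.34 to 2.61 and so overlapped with WT B.

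In the rest of the 12, WT A, WT B or both lay above at least 1 of the 2 preadipocyte samples of day 0. Itih5, which encodes a hyaluronan-binding inhibitor chain, was at 0.707 in the untransduced sample, 4.42 in WT A and 8.98 in WT B, but at 0.485 or less in the other 5 untransduced samples. It was as high in S265A (8.08) and S265D (8.70) but at 0.510 in S265D-H1120Y. Cd109, a surface protein that binds TGF-β, had 2.59 in the untransduced sample, 23.1 in WT A and 15.6 in WT B, with 15.1 and 12.8 at day 0. Aspn, a small proteoglycan of the matrix, had 1.27 in the untransduced sample, 9.17 in WT A and 11.4 in WT B, but also 5.75 to 12.49 in the other differentiated untransduced samples. Only the untransduced sample of day 8 with ROS was low for Aspn, and the same held for Igfbp5, an IGF-binding protein, which was at 0.0765 there, 1.27 in WT A, 1.12 in WT B and 1.61 to 2.15 in the other differentiated untransduced samples. Rnf128, a ubiquitin ligase, had 0.306, 2.89 and 3.31, Prune2 0.866, 5.34 and 9.31, and Osap 0.123, 1.39 and 2.99 in the untransduced sample, WT A and WT B. At day 0 Rnf128 had 2.75 and 1.84, Prune2 9.57 and 8.00, and Osap 1.34 and 1.32.

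Rpl39l led the genes that were lower. It encodes a paralog of ribosomal protein L39 (chromosome 16, 10170321 to 10175004 on mm9) and had an FPKM of 11.1 in the untransduced sample, while it is listed at 0 in WT A and WT B. The other differentiated untransduced samples had between 9.74 and 13.0, and the 3 mutants had 0.140 in S265A and are listed at 0 in S265D and S265D-H1120Y. Reads shared with Rpl39 or its other copies would make this value uncertain.

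Rbp7, which encodes a retinol-binding protein of adipose tissue, had 81.0 in the untransduced sample, 9.06 in WT A and 9.69 in WT B, a log2 difference of -3.10 (limma SE 0.46). It was at 1.62 at day 8 without ROS and at 5.19 in S265A, 6.26 in S265D and 2.01 in S265D-H1120Y. The untransduced day 8 ROS plus sample was thus the only one of the 11 above 10. Nanos1, an RNA-binding repressor, had 11.5 in the untransduced sample, 1.96 in WT A and 1.45 in WT B, with 6.35 to 9.22 in the other differentiated untransduced samples.

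Fmo2, a flavin monooxygenase, was at 3.43, 0.329 and 0.454 in the untransduced sample, WT A and WT B, but at 2.64 in S265A and 2.52 in S265D-H1120Y. Mlana, a melanocyte antigen gene that some adipocytes express, was at 4.14 in the untransduced sample and 0.585 and 0.590 in WT A and WT B, with 2.18 to 5.61 in the 3 mutants. The low values of these genes were therefore not shared by every transduced sample. Pamr1 (1.25, 0.0751 and 0.133) and S100g (1.02, 0 and 0.113) were close to the minimum FPKM in the untransduced sample. The remaining 5 of the 12 genes were histone genes.

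**Figure D2:**
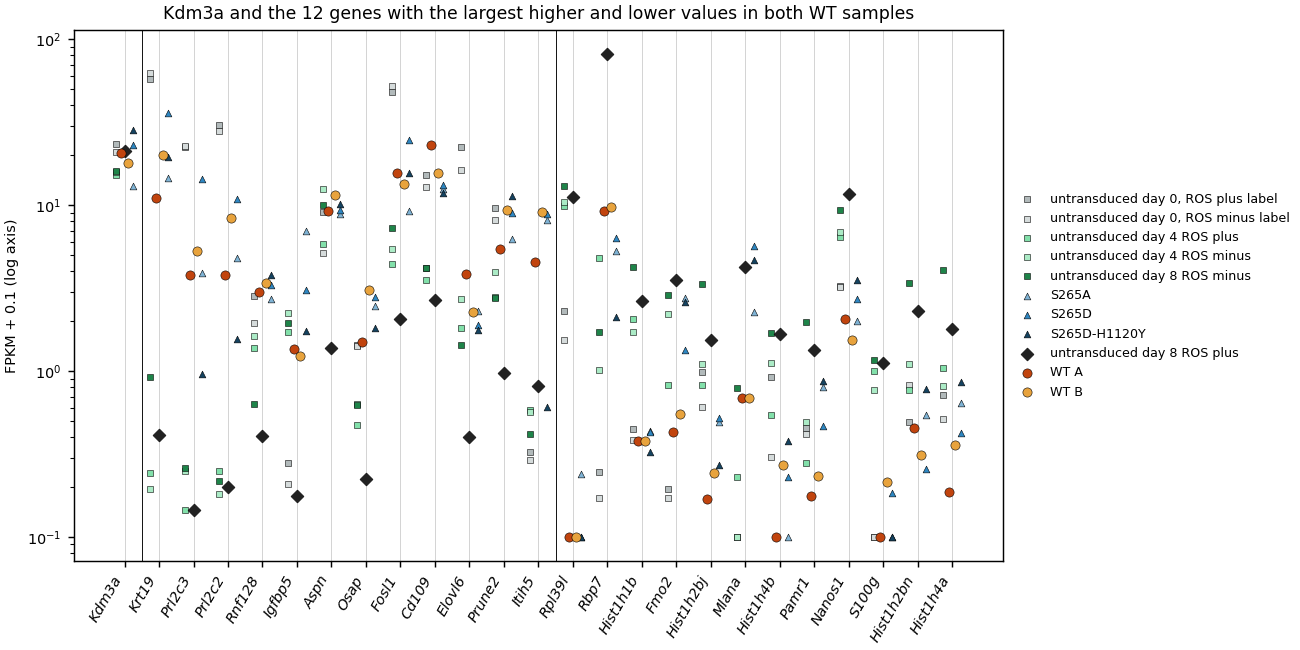
FPKM + 0.1 on a log axis of Kdm3a (left of the first line), the 12 genes with the largest higher values in both WT samples (middle) and the 12 with the largest lower values (right) in all 11 samples. Black diamonds mark the untransduced day 8 ROS plus sample, large circles WT A and WT B, triangles the mutants and squares the other untransduced samples. For Krt19 and Fosl1 the circles lie between the diamond and the squares of day 0, and for Rpl39l both circles lie at the level of an FPKM of 0.

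Replication-dependent histone genes stood out among the genes that were lower. They are intronless genes that supply histones in S phase, and their mRNAs end in a conserved stem-loop in place of a poly(A) tail. The stem-loop is shown because it defines the class, with the 4 bases of the loop in capitals, each read from the NCBIM37 (mm9) genome next to the 3′ end of its transcript:
Hist1h1b (chr13:21871706-21871721, minus strand): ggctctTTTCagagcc
Hist1h2bj (chr13:22135507-22135522, plus strand): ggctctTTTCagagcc
Hist1h3c (chr13:23836916-23836931, minus strand): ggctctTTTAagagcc
Hist1h4h (chr13:23623327-23623342, plus strand): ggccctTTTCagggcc
The motif searched was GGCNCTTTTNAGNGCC, on both strands, within 100 bases of the transcript's 3′ end. It was found in 16 of 11187 tested genes with a strand in the annotation (0.143%), all 16 of them histone cluster genes, and on the opposite strand in 0. Of these 16 genes, 11 were lower in both WT samples, and of 14 tested histone cluster genes without a match in the window, 12 were. Over all genes tested 1.72% were lower. Of the 30 histone cluster genes, 18 reached an FPKM of 1 only in the untransduced sample, as did 17 of the 23 that were lower. The minimum thus favoured low WT values in the genes with the motif and in those without it. The median log2 difference was -1.90 both with and without the motif.

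Hist1h1b, a linker histone gene, had an FPKM of 2.55 in the untransduced sample, 0.278 in WT A and 0.281 in WT B. Hist1h2bj had 1.43, 0.0702 and 0.141, Hist1h2bn 2.20, 0.351 and 0.212, Hist1h4a 1.69, 0.0857 and 0.259, and Hist1h4b 1.56, 0 and 0.173 in the same order. Of the more abundant members, 8 histone cluster genes reached an FPKM of 5 in any of the 3 samples. All 8 were below the untransduced sample in both WT samples. At least 2-fold lower in both were 5, beside 144 of 9569 genes with that minimum. Not called were Hist2h2aa2 (12.6, 2.45 and 10.9), Hist2h3c1 (6.09, 1.15 and 5.64) and Hist1h4i (13.7, 2.09 and 7.53). Hist1h2bc, whose transcripts can also be polyadenylated, had 130.6 in the untransduced sample, 21.7 in WT A and 54.4 in WT B, with 304 at day 8 without ROS. Hist1h1c had 71.8, 15.3 and 33.5, and 178 at day 8 without ROS. Both WT samples lay below the untransduced sample for each of these genes.

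Of 25 replication-dependent histone genes in the list that were found, 14 were tested and 13 of them were lower, all but Hist2h3b (1.66, 0.520 and 1.64). After a linear adjustment for exon length and GC content 8 of the 14 were lower, beside 169 of 11010 coding genes. A pseudocount of 1 left 7 of the 14 lower, beside 131 of 12919 genes. Of the 30 histone cluster genes tested, 14 and 10 were lower under these 2 settings. Because 9 of the 14 reached an FPKM of 1 only in the untransduced sample, the count was repeated with the minimum set in the other differentiated untransduced samples. Then 16 of 20 listed genes were lower in both WT samples, and of all 62 histone cluster symbols in the files 46 passed and 30 were lower, beside 1.86% of all genes. The median log2 difference of those 46 was -1.84, against -0.0047 over all genes passing the same minimum. None of the 46 was higher. Near-identical copies within the histone clusters may share reads, so a single member's level is less certain than the direction of the group.

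Medians of the listed histone genes were below the untransduced sample in WT A, WT B, the mutants and the preadipocytes. Over the 14 listed genes the median differences from the untransduced sample were -2.33 for WT A, -1.60 for WT B, -1.55 in S265A, -1.94 in S265D and -1.95 in S265D-H1120Y, all of which share that sample as a reference. At day 0 it was -1.76 and -2.04, at day 4 -0.21 and -0.34, and at day 8 without ROS 1.22. Of these 14 genes, 9 reached an FPKM of 1 in the untransduced sample but in neither WT A nor WT B. Choosing genes through the reference sample favours low values in the others, so part of these medians may come from that choice. Whether the mutants and preadipocytes stay low with the minimum set in other samples was not tested. How the libraries selected RNA with and without poly(A) is not given in the sources used here, and its part in the histone values was not tested.

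Cell cycle genes with ordinary polyadenylated mRNAs were lower as well, by less. Of 35 tested, 25 were below the untransduced sample in both WT samples and 3 above it, 4 were at least 2-fold lower beside a background of 1.72%, and 0 at least 2-fold higher. Their median log2 difference was -0.41 in WT A and -1.08 in WT B, beside 0.02 and 0.03 over all genes tested. Without WT A 19 of the 35 were at least 2-fold lower, and without WT B 4. Tyms, which makes thymidylate for DNA synthesis, had 27.3 in the untransduced sample, 12.8 in WT A and 8.07 in WT B. The replication licensing genes Cdc6 and Mcm5 had 13.8, 5.00 and 4.65, and 85.1, 39.6 and 22.3. Rrm1, a subunit of ribonucleotide reductase, had 100.1, 45.1 and 26.7.

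Unlike the histone genes, these 4 were near the untransduced value in preadipocytes. Tyms was at 25.1 and 27.1 at day 0 and at 29.9 to 33.2 in the other differentiated untransduced samples, and Cdc6 at 16.5 and 17.2 and at 13.1 to 20.4. Mcm5 had 78.2 and 85.7 at day 0 and Rrm1 84.1 and 91.3. Over the list, 24 of 35 genes were below all 4 differentiated untransduced samples in both WT samples, by any amount, beside 17.4% of all genes tested. Uhrf1, which binds hemimethylated DNA in S phase and stands in the list of JMJD1 demethylases and H3K9 methyltransferases, was at 66.7, 33.2 and 17.6 in the untransduced sample, WT A and WT B. Mki67, a marker of dividing cells, was not lower (10.5, 14.3 and 16.8), and for the topoisomerase gene Top2a (46.9, 30.4 and 48.7) the untransduced value lay between WT A and WT B.

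Beige and brown adipocyte genes separated WT A from WT B more than either from the untransduced sample. Of 25 tested, 15 had the untransduced value between WT A and WT B, 9 were below it in both and 1 was above it. The median log2 difference was 0.36 in WT A and -1.02 in WT B. Ucp1, the uncoupling protein, had 9.90 in the untransduced sample, 12.1 in WT A and 0.724 in WT B, with 0.0970 at day 8 without ROS. Cidea, a lipid droplet protein of brown fat, had 40.8, 33.2 and 7.03, and 1.34 without ROS. Elovl3, a fatty acid elongase of brown fat, had 52.3, 70.4 and 2.57, and 5.9996 without ROS. WT B was thus near or below the untransduced adipocytes without ROS for Elovl3 and Cox8b (13.5 against 40.3) and well below those with ROS for all 4.

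Otop1 and Prdm16 lay far above the untransduced sample in WT A and below it in WT B. Otop1, a proton channel of brown fat, was at 1.13 in the untransduced sample, 11.5 in WT A and 0.171 in WT B, while Prdm16, a transcription factor of brown and beige fate, was at 0.143, 1.25 and 0.0128. Irf4, a transcription factor that responds to fasting, was the only gene of the list at least 2-fold lower in both, with 6.53, 1.37 and 3.03, and 0 were higher. Over all genes tested 1.72% were lower and 5.23% higher. Among the mutants, S265D had 4.67 for Ucp1 and 43.4 for Cidea, S265A 0.972 and 7.29, and S265D-H1120Y 0.0528 and 2.35. A reference of WT A or of WT B thus sets the S265A value of Ucp1 either far below WT or slightly above it.

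**Figure D3:**
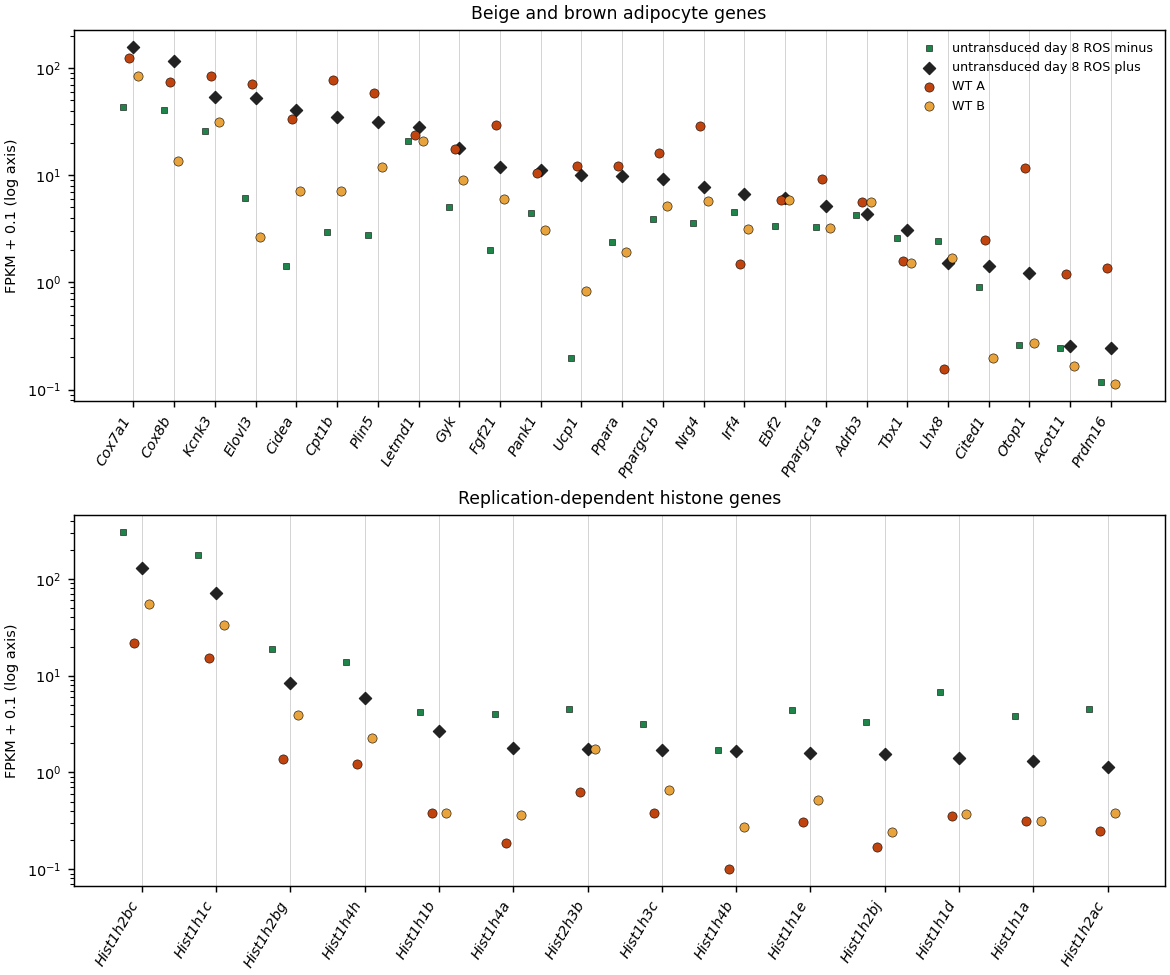
FPKM + 0.1 on a log axis for the 25 beige and brown adipocyte genes tested (top) and the 14 replication-dependent histone genes tested (bottom), in the untransduced day 8 sample with ROS (diamonds) and without it (squares), WT A and WT B (circles). In the upper plot the diamond lies between the circles for 15 genes, and in the lower plot both circles lie below it for all 14.

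General adipocyte genes were closer in WT A and WT B. Of 26 tested, 15 were below the untransduced sample in both and 2 above it, beside 31.9% and 34.9% of all genes tested. Their median log2 difference was -0.52 in WT A and -0.54 in WT B. Untransduced cells of day 4 with ROS, day 4 without ROS and day 8 without ROS had -0.32, -0.62 and -0.65. In both WT samples 5 of the 26 lay below all 4 differentiated untransduced samples and 2 above them, by any amount, beside 17.4% and 11.2% of all genes tested. Fabp4, the fatty acid carrier of adipocytes, had 31402 in the untransduced sample, 12393 in WT A and 26902 in WT B, while Pparg, the master regulator of adipogenesis, had 139.6, 89.8 and 95.6. Cebpd, a transcription factor that glucocorticoid induces early in adipogenesis, was at least 2-fold lower, with 15.5, 2.84 and 4.65. The other differentiated untransduced samples had 15.1 to 24.0 for Cebpd and the 3 mutants 3.67 to 5.03, so the transduced and differentiated untransduced samples did not overlap. Adig, which encodes the adipocyte protein adipogenin, had 504, 213 and 200.3.

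Among genes known to respond to glucocorticoids, Fkbp5 and Tsc22d3 were lower, while the list as a whole went both ways. Fkbp5, a chaperone of the glucocorticoid receptor, had 126.9 in the untransduced sample, 49.1 in WT A and 34.1 in WT B, while Tsc22d3 had 82.5, 25.4 and 39.9. Fkbp5 was at 28.9 to 40.4 in the mutants and at 157.7 to 179.8 in the other differentiated untransduced samples. The receptor gene Nr3c1 had 11.5, 21.8 and 19.998. Of 20 genes in the list of steroid, glucocorticoid and clock genes, 10 were below the untransduced sample in both WT samples and 6 above it. At least 2-fold lower were 2, and 1 was higher (Clock, at 5.70, 13.4 and 12.4), beside 1.72% and 5.23% of all genes tested. The median log2 difference was -0.24 in WT A and -0.35 in WT B.

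Genes of lipid oxidation and of the respiratory chain differed mainly in WT B. Of 37 fatty acid oxidation genes tested, 1 was higher and 2 lower, beside 5.23% and 1.72% of all genes tested. Their median log2 difference was 0.07 in WT A and -0.83 in WT B. Abcd2, a peroxisomal transporter, had 2.42 in the untransduced sample, 19.5 in WT A and 5.94 in WT B. Hsd17b10, a mitochondrial dehydrogenase, had 529.9, 179.9 and 105.1, and Pdk4, which restrains pyruvate oxidation, 145, 64.6 and 68.0. For the respiratory chain 0 of 55 genes passed 2-fold in both in either direction. Below the untransduced sample in both were 37, beside 31.9% of all genes tested, and the median was -0.13 in WT A and -0.92 in WT B. Untransduced cells of day 4 with ROS, day 4 without ROS and day 8 without ROS had -0.42, -0.75 and -0.60. For fatty acid oxidation they had -0.60, -0.86 and -0.82. In both WT samples 1 of the 55 and 1 of the 37 lay below all 4 differentiated untransduced samples by any amount, beside 17.4% of all genes tested. Atp5b had 2855, 2409 and 1152, and Cox4i1 2132, 1393 and 926.

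Most sterol synthesis genes, but not most fatty acid synthesis genes, were above the untransduced sample in both WT samples. The stearoyl-CoA desaturase gene Scd1 was at 1957 in the untransduced sample, 4042 in WT A and 3781 in WT B. Of 22 sterol synthesis genes, 14 were above the untransduced sample in both and 1 below it, beside 34.9% and 31.9% of all genes tested. None differed by 2-fold in both, and the median log2 difference was 0.71 in WT A and 0.35 in WT B. It was 0.31 at day 4 with ROS, 0.13 at day 4 without ROS and 0.26 at day 8 without ROS. At day 0 it was 1.28 and 1.38. In both WT samples 6 of the 22 lay above all 4 differentiated untransduced samples and 0 below them, beside 11.2% and 17.4% of all genes tested. Fdps had 170, 194 and 227, and Sqle 36.6, 69.3 and 66.6. The 28 fatty acid and triglyceride synthesis genes had a median of 0.50 for WT A but -0.17 for WT B. For 14 of them the untransduced value lay between the WT samples. Elovl6 was the 1 gene called, as higher, beside 5.23% of all genes tested. It reached an FPKM of 1 only in the WT samples among the 3 compared. With the minimum set in the other differentiated untransduced samples, 1 of 27 was higher, beside 4.45% of all genes.

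Among the lists, that of collagen and matrix genes held the largest number of genes that were higher. Of 42 tested, 29 were above the untransduced sample in both WT samples and 2 below it, 11 were at least 2-fold higher beside a background of 5.23%, and 1 was lower. The median log2 difference was 0.55 in WT A and 1.36 in WT B. Col1a1 and Col1a2, the chains of type I collagen, had 47.1 and 56.5 in the untransduced sample, 150 and 135 in WT A, and 183 and 179 in WT B. Col6a3 of the microfibrillar type VI had 42.7, 180.8 and 149.3, and Col12a1 2.38, 39.1 and 6.92. The others that were higher were Col5a1, Col6a2, Col11a1, Col15a1, Col18a1, Ogn and Timp3. Mgp, an inhibitor of calcification, was lower, with 15.9, 4.36 and 6.59.

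Those matrix values were low in the untransduced day 8 ROS plus sample rather than outside the range of untransduced cells. Col1a1 was at 90.8, 132 and 170 in the other differentiated untransduced samples and at 412 and 420 at day 0. By any amount, 1 of the 42 genes was above all 4 differentiated untransduced samples in both WT samples and 1 was below them, beside 11.2% and 17.4% of all genes tested. After each WT difference was centred on genes of like exon length, 7 of the 42 were at least 2-fold higher and the median was 0.73 in place of 0.94.

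Of 22 preadipocyte and fibroblast genes, 5 were higher beside the same background of 5.23% and 0 lower, with a median log2 difference of 0.12 in WT A and 1.01 in WT B. Under quantile normalization 3 were higher, as after adjustment for exon length and GC content. Untransduced cells of day 4 with ROS, day 4 without ROS and day 8 without ROS had list medians of 0.26, 0.73 and 1.08. The untransduced day 8 ROS plus sample was thus low beside them too. In both WT samples 2 of the 22 genes lay above all 4 differentiated untransduced samples by any amount, beside 11.2% of all genes tested. Thy1, a surface antigen of fibroblasts, had 0.899 in the untransduced sample, 5.36 in WT A and 15.1 in WT B. Postn, the matrix protein periostin, had 36.1, 76.3 and 212, Nt5e, the ectonucleotidase CD73, 1.88, 5.63 and 4.78, Tgfbi 5.00, 10.8 and 14.6, and Loxl2 7.72, 19.0 and 25.5. Pdgfra, a receptor of adipose progenitors, was not on one side, with 18.3, 9.33 and 35.6. In RNA from a whole culture, fewer cells of a kind and less RNA per cell cannot be told apart.

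**Figure D4:**
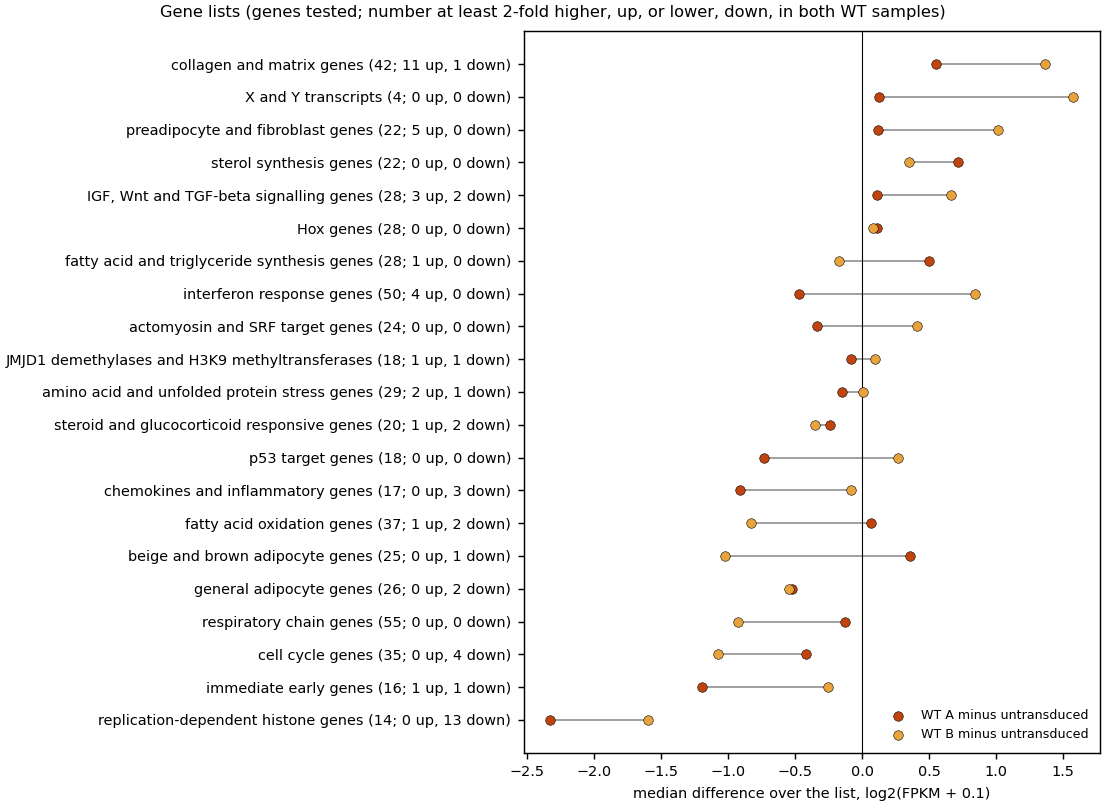
Median difference from the untransduced sample on log2(FPKM + 0.1) over the tested genes of each list, for WT A (dark circles) and WT B (light circles), with the number of genes tested and called in brackets. WT A and WT B lie on the same side for the histone, cell cycle, general adipocyte, sterol and collagen lists, and on opposite sides for 8 lists, among them beige, fatty acid oxidation, interferon and p53.

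Stress and interferon genes varied between WT A and WT B. Hmox1, heme oxygenase, had 46.1 in the untransduced sample, 617 in WT A and 171 in WT B, with 494 to 1170 in the mutants and 65.9 to 106 in the other differentiated untransduced samples. Hsp90b1, a chaperone of the endoplasmic reticulum, had 144, 323 and 369, and Hspa1b, a heat shock protein, was lower with 27.4, 6.16 and 12.4. Of 29 amino acid and unfolded protein stress genes, 2 were higher and 1 lower, beside 5.23% and 1.72% of all genes tested. Their median was -0.15 in WT A and 0.0074 in WT B. Of 50 interferon response genes, 4 were higher (Samd9l, Trim30a, Oasl1 and Iigp1), 0 lower, and 32 had the untransduced value between WT A and WT B, with a median of -0.47 in WT A and 0.84 in WT B. Samd9l had 3.37, 17.4 and 20.5, while Isg15 had 158, 136 and 390.1.

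Of 17 chemokine and inflammatory genes, 7 lay below the untransduced sample in both WT samples, 1 above it, and 9 had the untransduced value between WT A and WT B, with a median log2 difference of -0.91 in WT A and -0.08 in WT B. At least 2-fold lower in both were 3 of the 17, beside 1.72% of all genes tested: Lcn2 (29.8, 9.21 and 7.88), Hp (73.2, 31.2 and 5.79) and Nfkbia (70.3, 13.3 and 32.99). Of 16 immediate early genes, 9 lay below the untransduced sample in both and 1 above it, with a median of -1.19 in WT A and -0.25 in WT B. Only Ier2 was called lower (19.9, 8.90 and 9.09) and only Fosl1 higher, beside 1.72% and 5.23% of all genes tested. Signalling genes of the IGF, Wnt and TGF-β families gave 3 that were higher of 28, namely Igfbp5, Dkk2 and Tgfb2, beside 5.23% of all genes tested. Lower were 2, beside 1.72%, namely Igfbp3 (108, 49.0 and 7.87) and the activin inhibitor Fst (3.24, 1.37 and 0.763). All 3 of those that were higher reached an FPKM of 1 only in a WT sample.

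In the remaining lists no gene or 1 gene each way was called, beside 5.23% higher and 1.72% lower over all genes tested. Of 18 JMJD1 demethylases, H3K9 methyltransferases and related genes, Jmjd1c was higher (4.79, 9.74 and 13.2) and Uhrf1 lower, while Kdm3b, the closest relative of Kdm3a, had 12.9, 12.9 and 9.30 and the methyltransferase gene Ehmt2 54.0, 32.8 and 36.3. None of 18 p53 target, 24 actomyosin or 28 Hox genes was called. WT A alone was high for Hoxa13 (0.283, 3.89 and 0 in the untransduced sample, WT A and WT B), Hoxa11 (0.582, 4.54 and 0.228) and Hoxd8 (0.411, 5.403 and 0.170), genes that mark position along the body and limb, and no other sample of the 11 was above 2.28 for any of them. None of the 4 X and Y transcripts tested was called. Hoxc10, the most abundant Hox gene, had 29.6, 21.7 and 21.5.

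Of the macrophage, endothelial and muscle markers, 2 of each list reached the minimum FPKM. Of 15 macrophage markers found, 2 were tested and 7 were at 0 in all 3 samples, among them C1qa, C1qb, Tyrobp and Ptprc, while Cd68 had 4.30, 5.00 and 16.6. Of 12 endothelial markers 2 were tested and 1 of them, Pecam1, was higher (0.207, 0.965 and 2.04), beside 5.23% of all genes tested. Pecam1 reached an FPKM of 1 only in WT B. With the minimum set in the other differentiated untransduced samples, 1 endothelial marker remained and 0 were higher. Erg, Cldn5, Tie1 and Cdh5 were at 0. Of 15 muscle markers, Mb had 4.26, 15.7 and 4.08, Acta1 1.27, 1.397 and 19.3, and Myod1, Myog and Pax7 were at 0. The summed FPKM of the found markers in the 3 samples went from 5.24 to 17.6 for macrophages, from 3.50 to 4.91 for endothelium and from 6.28 to 24.0 for muscle, and the part of such cells in the results was not tested.

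The called genes differed from the rest in what they do early in differentiation, which was read in samples outside the comparison. From day 0 to day 4 with ROS, the FPKM at least doubled in 106 of the 222 genes that were lower in both WT samples (47.7%), against 14.7% of all genes tested. It at least halved in 137 of the 676 genes that were higher (20.3%), against 10.7% of all. In the opposite directions the shares were 3.15% of the lower genes and 9.32% of the higher genes. Genes that rose early in differentiation thus took a larger share of those that were lower, and genes that fell early a larger share of those that were higher, as counts without a test. The calls favour this in part, because a gene called lower is high in the untransduced sample by definition. The day 4 ROS plus sample lay close to that sample, with 8.40% of genes 2-fold apart, against 39.0% for the day 0 ROS plus sample. All genes tested are therefore not a matched background.

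Fewer genes stood outside the whole range of untransduced adipocytes. Both WT samples were at least 2-fold above all 4 differentiated untransduced samples for 84 genes (0.65%) and at least 2-fold below them for 61 (0.472%). With all 5 transduced samples required, 52 and 42 genes were left. Among the 61 were Rpl39l, Cebpd, Fkbp5, Nanos1, Igfbp3, Hp, Cdc6, Tyms, Uhrf1 and 10 of the 13 called histone genes of the list, and among the 84 were Krt19, Prl2c2, Prl2c3, Cd109, Itih5, Osap, Abcd2, Nt5e and Pecam1.

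Exon length ran along with the direction of the differences. With the tested genes split into 5 groups by exon length, 3.21% of the group with the shortest transcripts (65 to 1427 bases) were higher and 3.56% lower in both WT samples, and of the group with the longest (4361 to 45661 bases), 9.87% were higher and 0.387% lower. The median log2 difference went from -0.18 to 0.28 in WT A and from -0.22 to 0.39 in WT B. It also went from -0.11 to 0.32 in the untransduced sample of day 4 with ROS and from 0.08 to 0.21 in that of day 8 without ROS, while WT B less WT A went only from -0.02 to 0.12. The gradient was thus shared by samples with and without transduction when set against the untransduced day 8 ROS plus sample, and its cause was not tested. The median exon length was 3534 bases for the genes that were higher, 1659 for those that were lower and 2623 for all, and the median GC content of coding transcripts 44.4%, 52.4% and 50.3%. After centring on exon length, 564 genes were higher and 205 lower, of which 497 and 172 had been called without it.

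**Figure D5:**
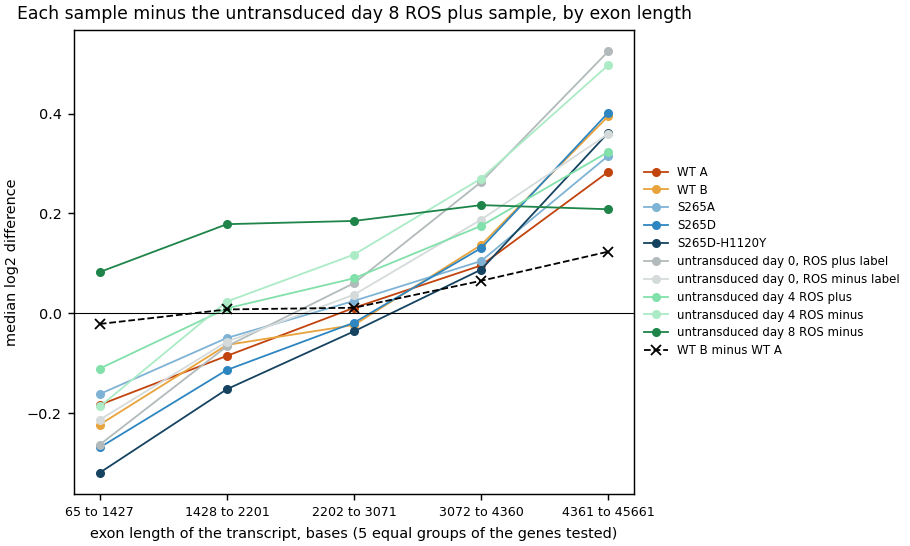
Median difference from the untransduced day 8 ROS plus sample on the log2 scale (vertical axis) in 5 equal groups of the tested genes by exon length in bases (horizontal axis), 1 line for each of the other 10 samples and a dashed line for WT B less WT A. The lines of all 10 samples are higher in the longest than in the shortest group, and the dashed line stays between -0.02 and 0.12.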

How the data were processed

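The authors made TruSeq libraries from total RNA of im-scWAT cells, sequenced them on a HiSeq, aligned reads with BWA to the mm9 genome and to UCSC transcripts, with local realignment, and computed values for each strand. They deposited, for each transcript and strand, the FPKM, its log10 and log2, and the mapped bases as a coverage signal. The deposited FPKM was used, and the log10, log2 and signal columns only as checks and for depth. No count test was run, since mapped bases do not count reads.

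The sense row marked as representative stood for each symbol, with a minimum FPKM of 1 in any of the 3 samples and a pseudocount of 0.1. Genes were called by fold in both WT samples. limma 3.58.1 in R 4.3.3 was fitted across all genes with Benjamini-Hochberg adjustment. On simulated data that gave every gene the same spread, an SD of 0.478 taken from the WT pair, it recovered 180 of 200 genes changed 8-fold. There were 2 false calls among 12919 genes. The spread of real genes differs from gene to gene, so this does not show that limma could find such changes in these 3 samples. Python 3.11.15, numpy 2.4.6, pandas 2.3.3 and matplotlib 3.10.9 were used. Coordinates are those of the files on mm9, and sequences were read from NCBIM37.

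Named genes are Kdm3a, the 12 genes each way whose smaller WT difference was largest, and from each list those called or the most abundant. Of the leading genes that were higher, 4 clone or predicted names were passed over. A gene with a reason to be shown beyond this rule (such as Hoxa13, Otop1 or Nr3c1) was chosen after its values were seen. The members and the 24 gene lists were chosen with earlier results of these data known. Alternatives changed the minimum, pseudocount, scaling, transcript and WT sample. The p-values measure only the spread between WT A and WT B.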

Additional observations from a re-analysis of the deposited data

How the results depend on the processing

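Counts of genes by fold moved with the settings. Against 676 higher and 222 lower, a minimum FPKM of 5 gave 369 and 144 and a pseudocount of 1 gave 286 and 131. Quantile normalization gave 419 higher (283 lower). With 1 WT sample left out the counts went from 1292 to 1937 higher and from 805 to 883 lower, because only 1 sample had to pass. A minimum of 0.1 or none, a pseudocount of 0.01, a median-of-ratios factor and another transcript stayed within 1.5 times. Chosen after seeing the data, a linear adjustment for exon length and GC content of coding genes gave 316 higher (169 lower), and the requirement to lie outside all 4 differentiated untransduced samples gave 84 and 61. limma called 0 genes with both WT samples under the 8 alternatives in which it was fitted (the minimum of 0.1 or none, both pseudocounts, quantile normalization, another transcript, the spread of the day 0 pair added, and an intensity trend). With 1 WT sample left out and the spread taken from the day 0 pair, calls went from 0 (without WT B) to 2501 (without WT A), which assumes that the lone samples vary as little as preadipocytes. No paired analysis was possible because only WT A and WT B carry replicate letters. The medians of the histone, cell cycle, general adipocyte and collagen lists kept their sign under each scaling, and that of the beige list without WT B was 0.36. The untransduced sample has no replicate, so its own spread could not be measured.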

Other observations

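Glycolytic genes, a list put together after values had been seen, were mostly above the untransduced sample. Of 18 tested, 14 were above it in both WT samples and 0 below it in both. By 2-fold in both, 3 were higher (Aldoc, Slc16a3 and Hk1), beside 5.23% of all genes tested. Because the list was chosen with values seen, the share cannot serve as a test. Of the 3, 1 (Slc16a3) reached an FPKM of 1 only in a WT sample. With the minimum set in the other differentiated untransduced samples, 3 of 18 were higher and 0 lower, beside 4.45% and 1.86% of all genes. The median log2 difference was 1.03 in WT A and 0.55 in WT B. In both WT samples 13 were above all 4 differentiated untransduced samples, by any amount, beside 11.2% of all genes tested. Gapdh had an FPKM of 2183 in the untransduced sample, 5191 in WT A and 4135 in WT B, between 5138 and 5860 in the mutants and between 1252 and 2136 in the other differentiated untransduced samples. Aldoc had 3.86, 20.8 and 19.4, Slc16a3, a lactate exporter, 0.827, 3.78 and 4.04, and Hk1 11.8, 37.2 and 28.3. Gapdh is often used as a reference gene, and here it was 2.38 times the untransduced value in WT A and 1.89 times in WT B.

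Genes known to respond to hypoxia, a list chosen in the same way, gave 6 of 15 at least 2-fold higher in both, beside 5.23% of all genes tested, and 0 lower. Because the list was chosen with these values seen, the share cannot serve as a test. Of the 6, 1 (Car9) reached an FPKM of 1 only in a WT sample. With the minimum set in the other differentiated untransduced samples, 5 of 14 were higher and 0 lower, beside 4.45% and 1.86% of all genes. Car9, a carbonic anhydrase, had 0.0598 in the untransduced sample, 1.64 in WT A and 0.574 in WT B, Ak4 3.48, 12.7 and 13.2, Egln3 18.5, 76.2 and 41.2, and P4ha2 10.7, 28.2 and 37.0. P4ha1 and Ankrd37 were the other genes of the list that were higher. Kdm3a, itself a member, was not on the higher side. Bnip3 had 447, 428 and 327 and Adm 9.14, 5.96 and 11.4.

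The nuclear noncoding RNAs Malat1 and Neat1 differed between the WT samples and not between WT A and the untransduced sample. Malat1 had 27.6 in the untransduced sample, 25.8 in WT A and 256 in WT B, with 147 in S265D and 154 in S265D-H1120Y but 42.3 in S265A. Neat1 had 45.4, 34.6 and 196.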
